A study of Mus musculus with 6 samples.

Results

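SR proteins, hnRNPs and the SF3A and SF3B subunits of the U2 snRNP were examined in RNA-seq of mouse quadriceps muscle. Members were taken by gene symbol alone: every gene whose symbol begins with Hnrnp, with Srsf and a digit, or with Sf3a or Sf3b and a digit, leaving out 1 pseudogene row. This gave 40 of the 27179 genes in the count files: 11 SR proteins, 20 hnRNPs, 3 SF3A subunits and 6 SF3B subunits. Of these, 39 were among the 16483 genes with enough counts to test. *Srsf12* was not, with counts of 8, 0 and 6 in the control libraries (B, C, D) and of 2, 3 and 4 in the miDrp1KO libraries (A, E, F).

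The comparison was between 3 control mice (libraries B, C and D) and 3 miDrp1KO mice (libraries A, E and F), 1 library per mouse, all on a normal chow diet. Both groups are of a floxed Drp1 line backcrossed to C57BL/6J and were given tamoxifen at 3 months of age, per the study's methods, and muscle was taken 3 weeks after deletion. The miDrp1KO mice also carry HSA-MerCreMer, a tamoxifen-activated Cre driven by the human skeletal actin promoter, so that *Dnm1l*, the gene of the mitochondrial fission GTPase Drp1, is deleted in skeletal muscle fibres. The controls are labelled f/f, while the methods describe controls with 1 or both alleles floxed, and male mice on this diet. Whole muscle was used, so fewer cells of a type and less RNA per cell cannot be told apart.

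Pre-mRNA splicing removes introns through a spliceosome assembled anew on each one. SR proteins bind exonic sequences through RNA recognition motifs and recruit the spliceosome through arginine and serine-rich domains that are phosphorylated by SRPK and CLK kinases. The hnRNPs coat nascent transcripts and often oppose SR proteins at nearby splice sites, and many also act in mRNA export, stability or translation. SF3A and SF3B are protein complexes of the U2 snRNP, which pairs with the branch point of the intron. Skeletal muscle depends on alternative splicing for many sarcomere and calcium-handling proteins, under regulators such as MBNL1, RBFOX1 and RBM20.

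*Dnm1l* was measured first as a check of the labels. Its level was 156, 114 and 140 CPM (counts normalised to library size with TMM factors, as for all levels here) in controls B, C and D, against 70.6, 81.3 and 66.2 CPM in miDrp1KO A, E and F. Every miDrp1KO library lay below every control library. The log2 fold change was −0.91 (SE 0.18), with an adjusted p = 0.362 by edgeR's quasi-likelihood test (Benjamini-Hochberg, over all genes tested), and p = 0.1 by a two-sided exact permutation test, the smallest p that 3 libraries against 3 can give.

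Fitted levels were below control for 18 of 20 hnRNP genes and all 3 SF3A genes, beside 48% of all genes. SR protein genes lay on both sides of the control level. Among the SF3A genes only *Sf3a1* had no overlap between the groups. *Hnrnpa2b1*, the most abundant member per length of transcript, had a mean of 123 ± 18.0 CPM (SD, n = 3) in miDrp1KO against 196 ± 33.4 CPM (SD, n = 3) in control muscle. *Sf3a1*, *Hnrnpm*, *Hnrnph3* and *Srsf4* were also lower, with fitted log2 fold changes of −0.56, −0.57, −0.57 and −0.56. Without miDrp1KO F these were −0.389, −0.327, −0.399 and −0.435. *Sf3b6*, a small subunit of SF3B, was measured at 36.6% above control.

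No member passed the adjusted threshold of 0.05 by edgeR, against 0.0121% of all genes tested, and the lowest adjusted p among members was 0.379. By DESeq2, 1 member of the 27 given an adjusted p passed, *Hnrnpa2b1* (log2 fold change −0.69, adjusted p = 0.0467). Of all 4431 genes given an adjusted p by DESeq2, 2.55% passed. Before adjustment, edgeR's p was under 0.05 and the level lower in 11 members, beside 6.22% of all genes lower at that p. It was under 0.05 with a higher level in 1 member, beside 4.68% of all genes. The 11 members became 6 without miDrp1KO F (beside 4.2% of all genes), 7 without control B (3.5%), 4 without control D (2.15%) and 14 without miDrp1KO A (8.9%), and 6 with each library's ribosomal RNA share in the fit (4.58%). The p-values set the difference between the groups against the spread among mice within a group. That spread was estimated from these 6 mice with information shared across genes.

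The fitted log2 fold change was below 0 for 30 of the 39 tested members, beside 48% of all genes, and their median was −0.23 against 0.02 over all genes tested. Without miDrp1KO F the members' median was −0.11. All miDrp1KO libraries lay below all control libraries for 15 members, beside 10.3% of all genes, and above them for 2 members, *Srsf2* and *Sf3b6*, beside 7.67% of all genes; the 2 became 4 without control B or without miDrp1KO F, where 2 libraries separate from 3 more easily. The plot of member levels by library shows each of these positions.

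**Figure D1:**
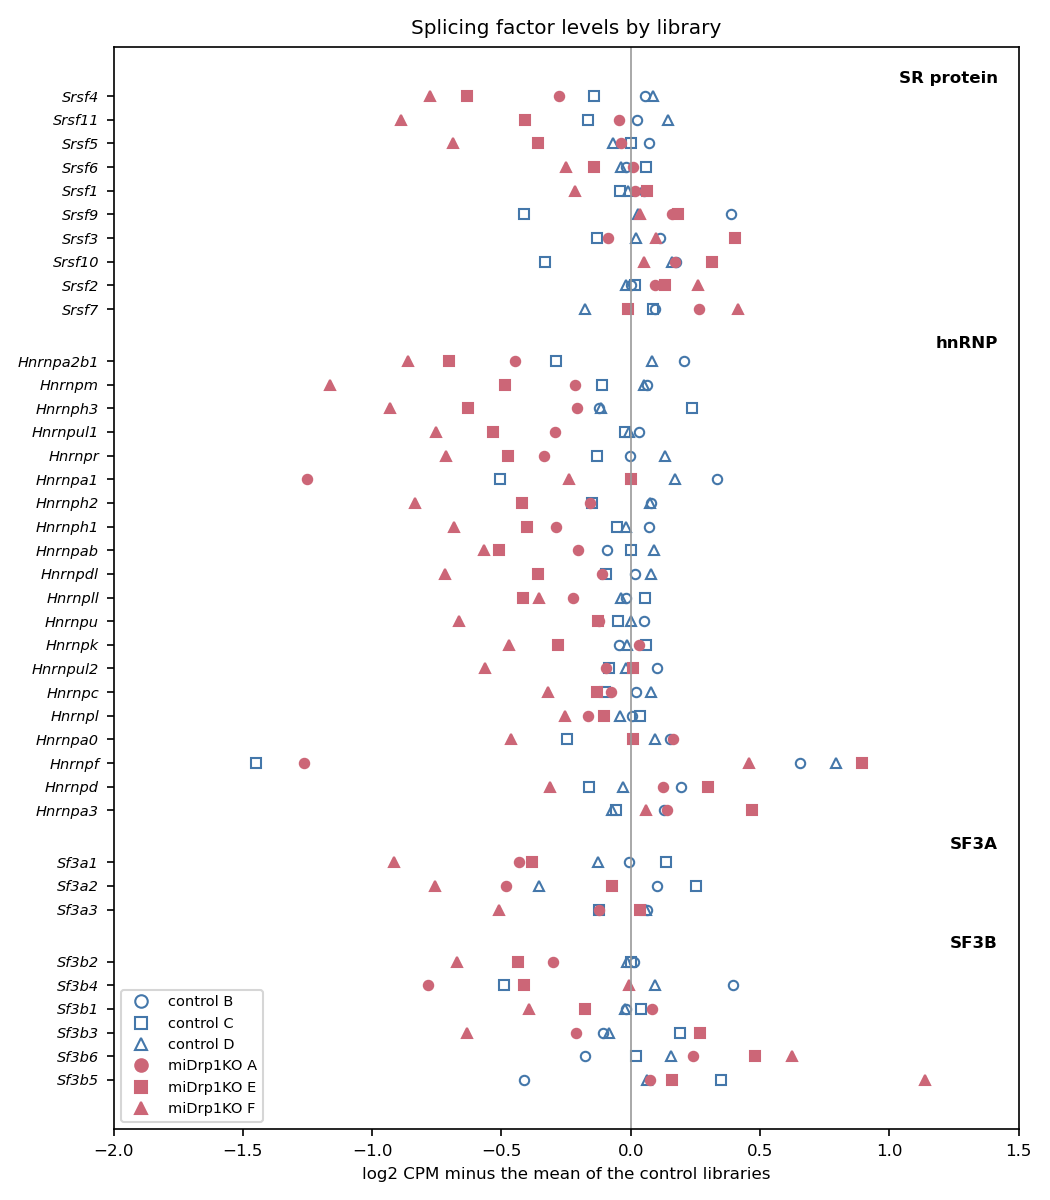
Levels of the 39 tested members in each library. The x axis is log2 CPM minus the mean of the control libraries, and each row is 1 gene (open blue symbols: control B, C and D; filled red symbols: miDrp1KO A, E and F). The filled triangle of miDrp1KO F is the lowest of all 6 libraries in 27 rows, and Hnrnpf has its low values in control C and miDrp1KO A.

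The 3 miDrp1KO libraries did not sit equally far from the controls. Taking each member's log2 distance from the control mean, the median over members was −0.12 in miDrp1KO A, −0.13 in E and −0.47 in F. Library F was the lowest of all 6 for 27 of the 39 members and the lowest of the miDrp1KO libraries for 30. By family, the hnRNP medians were −0.18, −0.32 and −0.57 in A, E and F, while the SR protein medians were 0.01, 0.02 and −0.09. The summed level of the 39 members was 2367, 2151 and 2331 CPM in the controls and 2063, 1957 and 1610 CPM in miDrp1KO muscle, so that the groups did not overlap in the sum.

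Other measures also differed between the libraries. Total counts ran from 13989588 (control C) to 62042255 (control D), with 20028624 in miDrp1KO F. The share of counts on ribosomal RNA genes was 3.36% to 15.6% in controls, 1.47% in miDrp1KO E, and 23.0% and 24.4% in miDrp1KO A and F. Of 14 skeletal muscle fibre markers, 12 had lower fitted levels in miDrp1KO muscle, 2 at an unadjusted p under 0.05 (all genes 6.22%) and 2 by DESeq2's adjusted p, and their summed level was 278010 to 326740 CPM in controls and 133540 (F) to 254410 (A) CPM in miDrp1KO libraries, with none of the genes absent. Of 9 macrophage markers 6 were higher in the fit, 4 at an unadjusted p under 0.05 (all genes 4.68%), and they summed to 171 to 312 CPM in controls and 257 to 292 CPM in miDrp1KO muscle. All 6 adipocyte markers were lower, 3 at that p (all genes 6.22%) and 2 by DESeq2's adjusted p, with sums of 186 to 395 and 70.5 to 181 CPM. Fibroblast markers (6 of 7 higher) summed to 1264 to 1829 and 1422 to 2359 CPM, and Schwann cell markers (5 of 5 higher) to 35.6 to 49.9 and 39.6 to 70.8 CPM, none at that p. The part of fibre content, other cell types and ribosomal RNA in the member levels was not tested beyond the fit with the ribosomal RNA share given above.

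**Figure D2:**
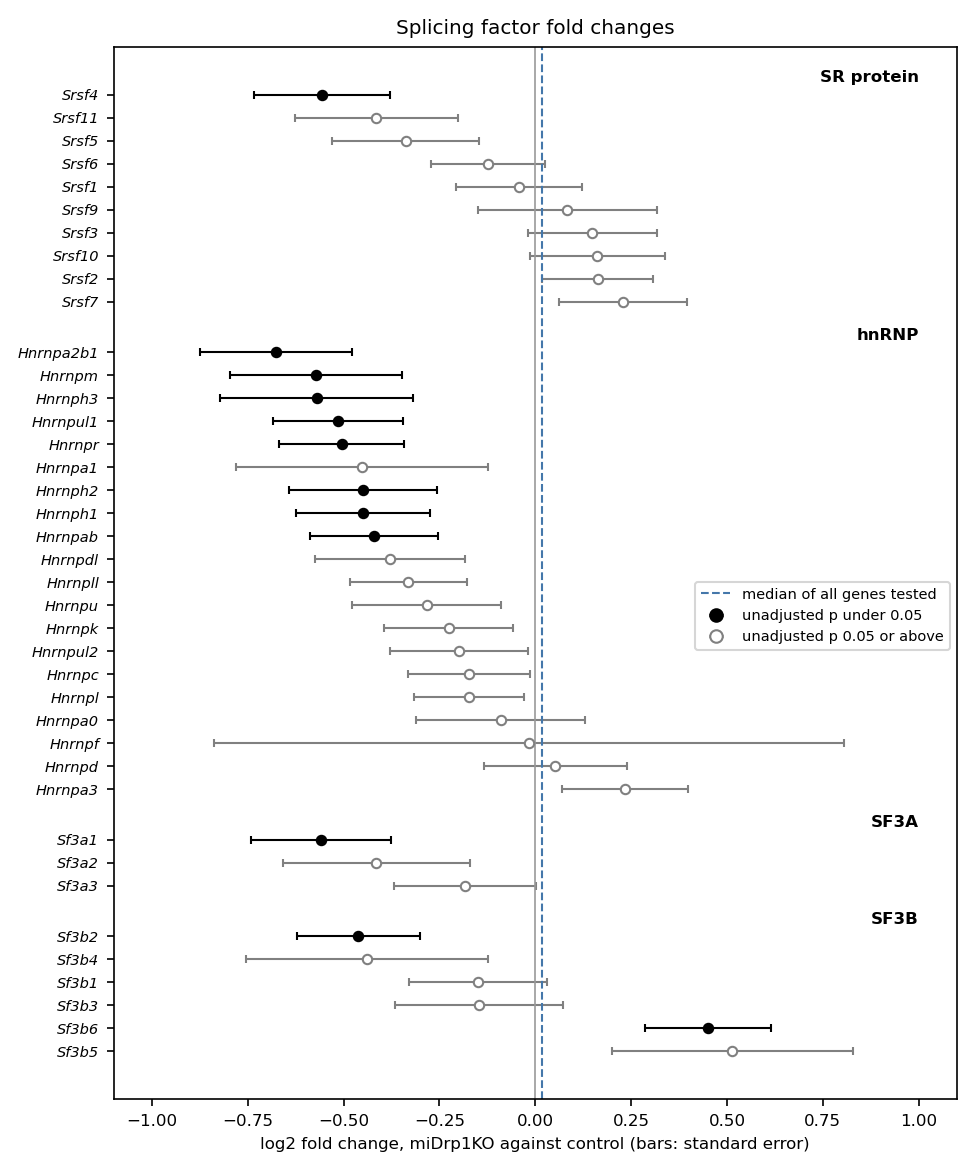
Fitted log2 fold change of each tested member, miDrp1KO against control, with bars for the standard error (edgeR, n = 3 and 3 libraries). Filled black points have an unadjusted p under 0.05, and the dashed line is the median of all genes tested, 0.02. The hnRNP rows lie mostly left of the line, and the SR protein rows on both sides.

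The upstream sequence of members at the head of each family is shown so that the gene starts can be read beside their levels. Each is the 250 bases before a start listed by RefSeq (GRCm38.p6), 5′ to 3′ on the gene's strand, with matches to 4 promoter motifs, on either strand, in capitals: the GC box GGGCGG, bound by SP1-type factors, the CCAAT box, the ETS core CCGGAAG and the TATA box TATAAA. Where matches touch or overlap they run together as 1 block of capitals. The windows are chr6:51469895-51470144 on the minus strand for *Hnrnpa2b1*, chr4:131873387-131873636 on the plus strand for *Srsf4*, chr11:4160104-4160353 on the plus strand for *Sf3a1*, chr19:5295458-5295707 on the minus strand for *Sf3b2* and chr12:4817358-4817607 on the plus strand for *Sf3b6*. For *Hnrnpa2b1* and *Srsf4* the listed start lies inside the gene's annotated span, so the window includes part of a longer transcript.
Hnrnpa2b1: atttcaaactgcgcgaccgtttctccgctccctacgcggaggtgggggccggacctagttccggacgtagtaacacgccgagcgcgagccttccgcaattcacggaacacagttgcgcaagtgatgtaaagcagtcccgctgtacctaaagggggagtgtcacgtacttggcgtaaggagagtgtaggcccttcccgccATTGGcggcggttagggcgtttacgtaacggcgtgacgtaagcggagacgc
Srsf4: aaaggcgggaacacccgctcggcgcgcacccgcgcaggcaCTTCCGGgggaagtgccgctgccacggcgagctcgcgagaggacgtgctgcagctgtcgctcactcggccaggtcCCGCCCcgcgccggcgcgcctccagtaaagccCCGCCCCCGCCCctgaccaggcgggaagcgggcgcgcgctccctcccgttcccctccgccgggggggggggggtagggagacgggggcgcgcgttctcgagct
Sf3a1: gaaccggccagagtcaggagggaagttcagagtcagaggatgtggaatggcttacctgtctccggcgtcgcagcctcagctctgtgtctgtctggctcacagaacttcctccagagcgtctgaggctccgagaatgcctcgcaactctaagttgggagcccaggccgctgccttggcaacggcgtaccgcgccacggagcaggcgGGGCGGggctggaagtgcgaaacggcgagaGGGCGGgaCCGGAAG
Sf3b2: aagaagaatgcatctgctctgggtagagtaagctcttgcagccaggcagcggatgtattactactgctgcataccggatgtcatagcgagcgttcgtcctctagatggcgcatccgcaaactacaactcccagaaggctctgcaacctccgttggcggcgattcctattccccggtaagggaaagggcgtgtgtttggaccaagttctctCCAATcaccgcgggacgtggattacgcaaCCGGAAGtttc
Sf3b6: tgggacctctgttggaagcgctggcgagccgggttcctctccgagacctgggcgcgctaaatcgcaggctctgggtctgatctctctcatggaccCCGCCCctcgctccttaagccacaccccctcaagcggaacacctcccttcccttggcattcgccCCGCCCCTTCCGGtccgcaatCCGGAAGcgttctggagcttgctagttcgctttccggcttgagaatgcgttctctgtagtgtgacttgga

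The *Srsf4* window holds 3 GC box matches and 1 ETS match, the *Sf3a1* window 2 GC boxes and 1 ETS match ending at the start, and the *Sf3b6* window, from the member measured higher, 2 GC boxes and 2 ETS matches. The *Hnrnpa2b1* window holds 1 CCAAT box on the opposite strand, and the *Sf3b2* window 1 CCAAT box and 1 ETS match. Windows were at hand for 36 of the 40 members, leaving out *Hnrnpll*, *Hnrnpul2*, *Sf3b4* and *Sf3b5*. A GC box was present in 27 of the 36 (75%) and in 32.9% of the 27025 windows of all genes, and an ETS core in 12 (33.3%) against 7.05%. A CCAAT box was present in 17 (47.2%) against 34.5%, and TATAAA in 4 (11.1%) against 13%. The 27025 windows include genes with too few counts to test here, as only 16483 genes were tested, whereas 39 of the 40 members were. The members were not compared with tested genes alone. A match is a run of letters and not a measured binding site.

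Among the hnRNPs, 18 of 20 genes had a fitted level below control, with a median log2 fold change of −0.35, and 8 of them had an unadjusted p under 0.05, beside 6.22% of all genes lower at that p. For 12 hnRNP genes every miDrp1KO library was below every control library, beside 10.3% of all genes. The 8 became 3 without miDrp1KO F (beside 4.2% of all genes lower at that p) and 5 without miDrp1KO E (3.91%). They became 4 without control B (3.5%), 2 without control D (2.15%) and 3 with the ribosomal RNA share in the fit (4.58%). The summed level of the 20 hnRNP genes was 1538, 1347 and 1518 CPM in controls B, C and D, against 1259, 1193 and 946 CPM in miDrp1KO A, E and F.

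*Hnrnpa2b1* encodes hnRNP A2/B1, a core hnRNP particle protein that also sorts mRNAs for transport. It measured 223, 159 and 205 CPM in controls B, C and D, against 142, 119 and 107 CPM in miDrp1KO A, E and F. The highest miDrp1KO value, in A, was below the lowest control value, in C. The log2 fold change was −0.68 (SE 0.20; unadjusted p = 0.00577; adjusted p = 0.379 by edgeR's quasi-likelihood test). Its level per kilobase of exon, the highest among members, was 103 CPM per kb in controls and 64.4 CPM per kb in miDrp1KO muscle. *Cbx3*, the gene of the chromatin protein HP1γ, starts 466 bp away on the opposite strand, and its fitted log2 fold change was 0.13 (SE 0.53).

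*Hnrnpr* encodes an RNA-binding protein close to SYNCRIP. It measured 47.9, 43.9 and 52.7 CPM in controls B, C and D, against 38.0, 34.6 and 29.2 CPM in miDrp1KO A, E and F, with no overlap of the groups. *Hnrnpul1* encodes a nuclear protein related to hnRNP U that takes part in the DNA damage response. Its controls were close together at 89.8, 86.5 and 87.5 CPM, and miDrp1KO A, E and F measured 71.7, 60.8 and 52.1 CPM. The log2 fold changes were −0.51 (SE 0.16) for *Hnrnpr* and −0.51 (SE 0.17) for *Hnrnpul1*, both with an adjusted p = 0.382 by edgeR.

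The hnRNP H and F proteins bind runs of G near splice sites. *Hnrnph1* measured 166, 153 and 156 CPM in controls and 129, 120 and 98.6 CPM in miDrp1KO A, E and F. *Hnrnph2*, its X-linked relative, measured 73.3, 62.6 and 73.0 CPM in controls and 62.2, 51.9 and 38.9 CPM in miDrp1KO muscle. In both genes all miDrp1KO libraries were below all controls, although for *Hnrnph2* the highest miDrp1KO value, in A, was close to the lowest control value, in C. *Hnrnph3*, at a low level, measured 4.59, 5.90 and 4.61 CPM in controls and 4.33, 3.21 and 2.59 CPM in miDrp1KO muscle, again with no overlap. The log2 fold changes were −0.45 (SE 0.17) for *Hnrnph1*, −0.45 (SE 0.19) for *Hnrnph2* and −0.57 (SE 0.25) for *Hnrnph3*, with adjusted p = 0.409, 0.436 and 0.446 by edgeR. Without miDrp1KO F, *Hnrnph2* had −0.27.

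*Hnrnpm* encodes a protein that binds GU-rich sequence and regulates exon choice. It measured 93.2, 82.6 and 92.5 CPM in controls B, C and D, against 77.0, 63.8 and 39.8 CPM in miDrp1KO A, E and F, and F was the library farthest from control. Its exons share 1169 bp with *March2* on the same strand, so its counts are uncertain there. *Hnrnpab* encodes a relative of hnRNP D that binds AU-rich RNA. It measured 83.3, 89.0 and 94.6 CPM in controls and 77.1, 62.3 and 60.0 CPM in miDrp1KO muscle. The groups did not overlap in either gene, and the log2 fold changes were −0.57 (SE 0.23) and −0.42 (SE 0.17), with adjusted p = 0.413 and 0.416 by edgeR. Without miDrp1KO F, *Hnrnpm* had a log2 fold change of −0.33.

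The other hnRNP genes had an unadjusted p above 0.05. *Hnrnpll*, *Hnrnpdl*, *Hnrnpu* and *Hnrnpl* were also without overlap between the groups, with log2 fold changes of −0.33, −0.38, −0.28 and −0.17. Without miDrp1KO F, *Hnrnpdl* had −0.21, *Hnrnpu* −0.11 and *Hnrnpl* −0.11. *Hnrnpll* and *Hnrnpl* encode proteins that bind CA-rich RNA, *Hnrnpdl* a relative of hnRNP D, and *Hnrnpu* the scaffold attachment factor SAF-A. *Hnrnpk*, whose protein binds C-rich RNA through KH domains, had −0.23, and *Hnrnpul2* −0.20, *Hnrnpc* −0.17 and *Hnrnpa0* −0.09, all with overlapping groups. Without miDrp1KO F these were −0.098, −0.024, −0.085 and 0.090. *Hnrnpa3* (0.23) and *Hnrnpd* (0.05) were the hnRNP genes with a fitted level above control. Without miDrp1KO E they were 0.098 and −0.089, and *Hnrnpd* was −0.044 without control C and 0.23 without miDrp1KO F.

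*Hnrnpf*, singled out after its values were seen, had the widest range of any member. It measured 48.1, 11.2 and 53.0 CPM in controls B, C and D, against 12.7, 56.7 and 41.9 CPM in miDrp1KO A, E and F, a 5.09-fold range. The low libraries were 1 of each group, and the fitted log2 fold change was −0.02 (SE 0.82). *Hnrnpa1*, the prototype A/B-type hnRNP, was also lowest in the same pair of libraries, at 9.19, 5.10 and 8.20 CPM in controls and 3.01, 7.28 and 6.14 CPM in miDrp1KO muscle, with a log2 fold change of −0.45 (SE 0.33), which ran from −0.72 without miDrp1KO E to −0.15 without miDrp1KO A. *Cbx3* had this pattern too, at 9.42, 3.64 and 10.2 CPM in controls and 3.84, 12.3 and 9.41 CPM in miDrp1KO muscle. *Hnrnpf* and *Hnrnpa1* each have 9 genes with near-identical transcript sequence (at least 95% identity over 200 bp), of which 6 and 9 are pseudogenes. *Hnrnpa3* has 28, of which 27 are pseudogenes, and was not low in those libraries, at 20.2 CPM in control C and 23.1 CPM in miDrp1KO A. Levels of these 3 hnRNP genes are uncertain because the sources do not say how reads matching several copies were counted.

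**Figure D3:**
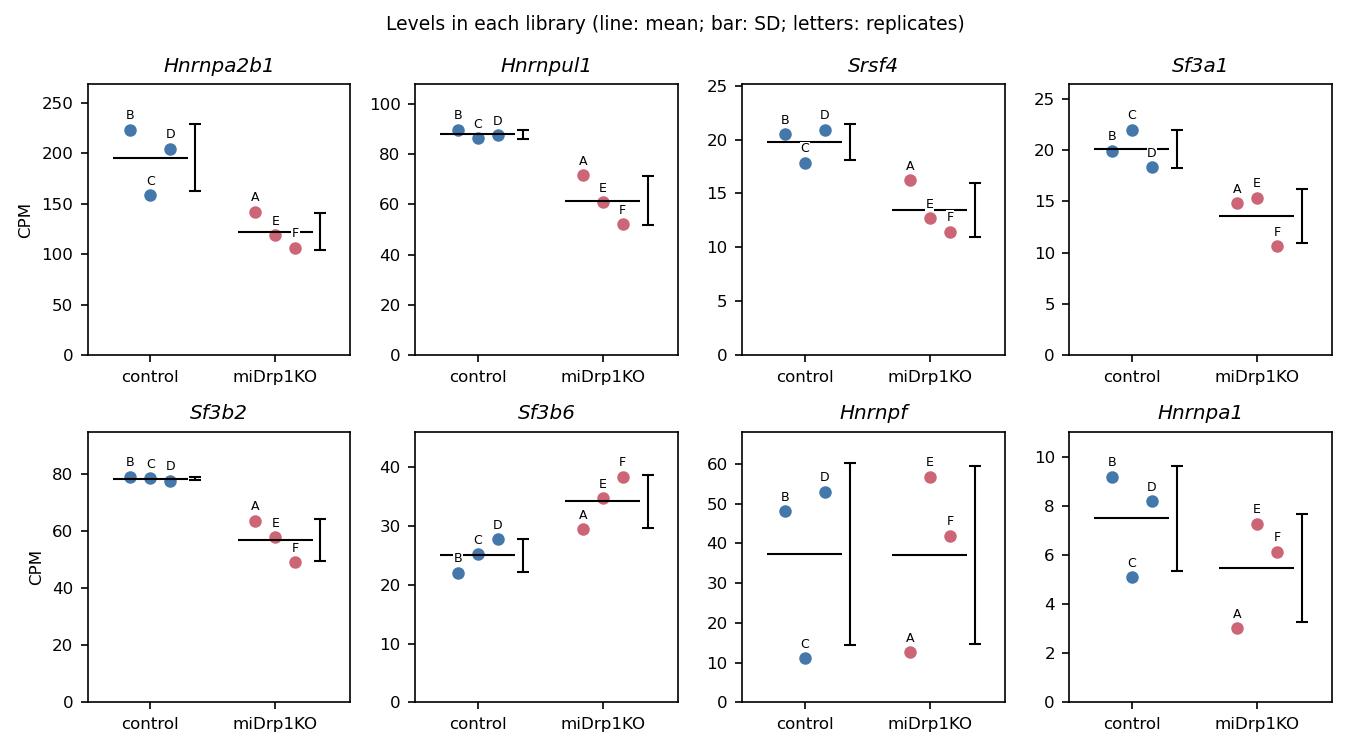
Levels of 8 members in CPM (y axis, from 0) in each library, lettered by replicate, with the group mean as a line and the SD as a bar (n = 3 each). In Hnrnpa2b1, Hnrnpul1, Srsf4, Sf3a1 and Sf3b2 all miDrp1KO points are below all control points, in Sf3b6 all are above, and in Hnrnpf and Hnrnpa1 control C and miDrp1KO A are the low points of their groups.

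Among the SR proteins, 5 of the 10 tested genes had a fitted level below control and 5 above, with a median log2 fold change of 0.02. This median was −0.09 without control C and 0.10 without miDrp1KO F. Their summed level was 508, 466 and 490 CPM in controls B, C and D, against 491, 465 and 403 CPM in miDrp1KO A, E and F, so that A was inside the control range, E at its lower edge and F below it.

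*Srsf4*, which encodes an SR protein with a long arginine and serine-rich domain, was the SR gene with an unadjusted p under 0.05. It measured 20.5, 17.9 and 20.9 CPM in controls and 16.2, 12.7 and 11.5 CPM in miDrp1KO A, E and F. All miDrp1KO libraries lay below all controls, with a log2 fold change of −0.56 (SE 0.18; adjusted p = 0.381 by edgeR's quasi-likelihood test). Its exons overlap those of *Gm12992* on the opposite strand by 1532 bp, and the strand setting of the counting was not given in the sources used here.

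*Srsf11*, whose protein associates with U2AF, measured 65.4, 57.4 and 71.2 CPM in controls and 62.4, 48.5 and 34.7 CPM in miDrp1KO A, E and F. *Srsf5*, the most abundant SR gene per length at 65.4 CPM per kb in controls and 51.7 CPM per kb in miDrp1KO muscle, measured 113, 108 and 103 CPM in controls and 105, 84.3 and 67.1 CPM in miDrp1KO muscle. In both genes miDrp1KO A lay within the control range and E and F below it. The log2 fold changes were −0.41 (SE 0.21) for *Srsf11* and −0.34 (SE 0.19) for *Srsf5*, with adjusted p = 0.510 and 0.550 by edgeR. Without miDrp1KO F they were −0.20 and −0.17.

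The other SR genes had fitted changes between −0.12 and 0.23 on the log2 scale. *Srsf1*, the founding member of the family, measured 124, 116 and 118 CPM in controls and 120, 124 and 103 CPM in miDrp1KO A, E and F, a log2 fold change of −0.04 (SE 0.17) with overlapping groups. *Srsf2*, known as SC35 and a marker of nuclear speckles, measured 37.7, 38.1 and 37.2 CPM in controls and 40.1, 41.3 and 45.1 CPM in miDrp1KO muscle. Here all miDrp1KO libraries lay above all controls, with a log2 fold change of 0.16 (SE 0.14; adjusted p = 0.710 by edgeR). *Srsf7* (0.23), *Srsf10* (0.16), *Srsf3* (0.15) and *Srsf9* (0.08) were also above control in the fit, and *Srsf6* (−0.12) below, each with overlapping groups. Without control C, *Srsf10* was −0.0045 and *Srsf9* −0.10, and without miDrp1KO E, *Srsf3* was 0.0046. Without miDrp1KO F, *Srsf7* was 0.15, *Srsf6* −0.045 and *Srsf1* 0.058. SRSF3 and SRSF7 are small SR proteins that shuttle to the cytoplasm and take part in mRNA export, and SRSF10 represses splicing when dephosphorylated.

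The SF3A subunits, which join the U2 snRNP before it binds the branch point, were all below control in the fit. *Sf3a1* measured 19.9, 22.0 and 18.4 CPM in controls B, C and D, against 14.8, 15.4 and 10.6 CPM in miDrp1KO A, E and F, with no overlap. Its log2 fold change was −0.56 (SE 0.18; adjusted p = 0.382 by edgeR's quasi-likelihood test). *Ccdc157*, which starts 57 bp away on the opposite strand, had a log2 fold change of 0.23 (SE 0.20).

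*Sf3a2* measured 7.53, 8.38 and 5.48 CPM in controls and 5.01, 6.67 and 4.13 CPM in miDrp1KO muscle, with E inside the control range. *Sf3a3*, the most abundant SF3A gene per length at 7.12 CPM per kb in controls, measured 13.5, 11.9 and 13.5 CPM in controls and 11.9, 13.3 and 9.07 CPM in miDrp1KO muscle, with only F clearly below. The log2 fold changes were −0.41 (SE 0.24) and −0.18 (SE 0.18), with adjusted p = 0.565 and 0.751 by edgeR. Without miDrp1KO F they were −0.25 and −0.024, and without miDrp1KO E −0.63 and −0.31.

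The SF3B subunits were divided, with 4 of 6 below control and a median log2 fold change of −0.15. Without miDrp1KO F, 3 of 6 were below control and the median was 0.024, and without miDrp1KO E the median was −0.28. It was −0.074 with the ribosomal RNA share in the fit and −0.060 with upper quartile normalization. *Sf3b2*, whose protein contacts the pre-mRNA upstream of the branch point, had closely grouped controls at 79.2, 78.7 and 77.9 CPM and measured 63.8, 58.1 and 49.3 CPM in miDrp1KO A, E and F. The groups did not overlap, and the SD was 0.67 CPM in controls and 7.32 CPM in miDrp1KO muscle (n = 3 each). The log2 fold change was −0.46 (SE 0.16, adjusted p = 0.392 by edgeR), and −0.347 without miDrp1KO F. *Sf3b1*, the scaffold subunit mutated in human blood cancers, measured 149, 155 and 148 CPM in controls and 160, 133 and 115 CPM in miDrp1KO muscle, with A above all controls and E and F below them (−0.15, SE 0.18; −0.022 without F). *Sf3b3* (−0.15) and *Sf3b4* (−0.44) also had overlapping groups. *Sf3b3* was 0.069 without miDrp1KO F and −0.41 without E, and *Sf3b4* was −0.22 without control B and −0.25 without miDrp1KO A.

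*Sf3b6* encodes a small RNA-binding subunit that interacts with SF3B1. It measured 22.0, 25.2 and 27.7 CPM in controls B, C and D, against 29.4, 34.7 and 38.3 CPM in miDrp1KO A, E and F. Its level per length was 21.2 CPM per kb in controls, below *Sf3b2* (24.4) and *Sf3b1* (24.3), and 29.0 CPM per kb in miDrp1KO muscle, where it was the highest of the SF3B genes. All miDrp1KO libraries lay above all controls, with a log2 fold change of 0.45 (SE 0.17; adjusted p = 0.393 by edgeR's quasi-likelihood test). *Sf3b5*, another small subunit, measured 6.16, 10.5 and 8.60 CPM in controls and 8.65, 9.19 and 18.2 CPM in miDrp1KO muscle. The higher mean of *Sf3b5* rested on F, since A and E lay within the control range; the log2 fold change was 0.51 (SE 0.31), and 0.11 without F.

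The 9 members with a fitted level above control ran from 0.734 kb of exon (*Sf3b5*, by its RefSeq span; its longest GENCODE transcript has 3841 bp) to 6.81 kb (*Hnrnpd*), with *Sf3b6* at 1.18 kb. Over the 39 members the fitted log2 fold change had a Pearson correlation of −0.20 with log2 exon length (Spearman −0.02) and −0.28 with GC content (Spearman −0.33). Over 16000 genes the Pearson values were −0.12 and −0.06. These are correlations across genes measured in the same 6 libraries and are given as a description. With length and GC content corrected in each library, the members' median was −0.25 and *Sf3b6* had a log2 fold change of 0.35, its lowest value over the alternatives tried.

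Of the 40 members, 19 have at least 1 gene with near-identical transcript sequence, for 11 of them including a pseudogene, and 18 overlap the exons of another gene. The median log2 fold change was −0.18 in the 20 tested members with no such copy and −0.34 in the 19 with one. Members with copies are uncertain in level. Members with neither a near-identical gene nor an exon overlap include *Hnrnpa2b1*, *Hnrnph1*, *Hnrnpul1*, *Sf3a1*, *Sf3a3*, *Sf3b5*, *Sf3b6* and *Srsf11*. *Hnrnpab*, *Hnrnph3*, *Hnrnpr*, *Sf3a2* and *Sf3b2* overlap exons on the opposite strand by 115 to 809 bp.

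Levels of splicing genes outside the families were read from lists written by hand. The list of branch point and 3′ splice site factors, *Phf5a* and *Dhx15* among them, was below control in 9 of 9 genes (median −0.24), beside 48% of all genes. Of these 9 genes, 4 had an unadjusted p under 0.05 by edgeR, beside 6.22% of all genes lower at that p. The first of these, by p, were *Rbm17* (−0.57, SE 0.17), *U2af1l4* (−0.45, SE 0.16) and *U2af2* (−0.44, SE 0.16), U2AF being the factor that binds the polypyrimidine tract and 3′ splice site. Of 15 tri-snRNP and catalytic core genes, 14 were below control (median −0.33), 4 of them at an unadjusted p under 0.05 (all genes 6.22%), and 1 was above at that p (all genes 4.68%). *Sart1* (−0.72, SE 0.19) and the helicase gene *Snrnp200* (−0.57, SE 0.21) were lower, and *Bud31* (0.44, SE 0.17) was higher.

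Of 11 genes of SR protein kinases and nuclear import, 9 were below control (median −0.30), 4 at an unadjusted p under 0.05, again beside 6.22% of all genes. *Srpk1*, which phosphorylates SR proteins in the cytoplasm, measured 19.0, 20.3 and 20.3 CPM in controls and 16.9, 14.0 and 12.1 CPM in miDrp1KO A, E and F. *Dyrk1a* (−0.57, SE 0.22) and the muscle kinase gene *Srpk3* (−0.46, SE 0.18) were the others named by rank of p. Of 15 SR-related coactivators, 14 were below control (median −0.20), with *Rnps1* (−0.52, SE 0.22) the 1 gene lower at an unadjusted p under 0.05, a share of 6.67% beside the 6.22% of all genes.

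Another list held hnRNPs and related RNA-binding proteins with other gene names, such as *Pcbp1*, *Ptbp1*, *Tia1* and *Rbm3*. It did not share the position of the Hnrnp genes. Of its 20 genes, 11 were below control, with a median of −0.01 and none at an unadjusted p under 0.05. The difference between this list and the Hnrnp genes was not tested. The U1 and U2 snRNP proteins had 3 of 5 genes below control (median −0.14), and the Sm core, the protein ring of the snRNPs, had 2 of 7 (median 0.29), with none at an unadjusted p under 0.05 in either. Of 10 muscle splicing regulators 9 were below control (median −0.17), 2 of them at an unadjusted p under 0.05 (all genes 6.22%), and 1 was above at that p (all genes 4.68%). *Rbm20*, the regulator of titin splicing, measured 110, 120 and 109 CPM in controls and 92.1, 76.5 and 58.4 CPM in miDrp1KO muscle (−0.58, SE 0.19). *Rbm24* had −0.43 (SE 0.20) and *Mbnl3*, at a low level, 1.01 (SE 0.37). No gene of these lists passed the adjusted threshold by edgeR, where the lowest adjusted p was 0.362 for *Sart1*, or by DESeq2. DESeq2 gave an adjusted p to only part of them: 6 of 9 branch point and 3′ splice site genes, 7 of 15 tri-snRNP and catalytic core genes and 8 of 11 kinase and import genes. For the coactivators it was 13 of 15, for the hnRNPs and related proteins with other names 11 of 20, and for the muscle regulators 9 of 10. For the U1 and U2 proteins it was 1 of 5, and for the Sm core 1 of 7.

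**Figure D4:**
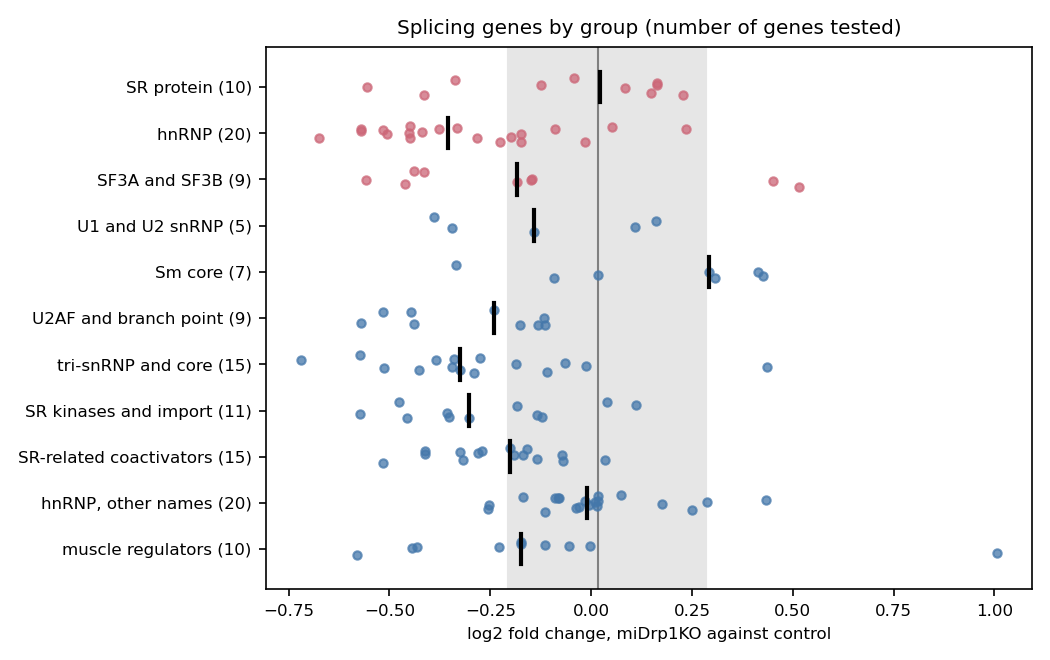
Fitted log2 fold changes (x axis, miDrp1KO against control) of single genes in each family and list, with the number of genes tested in brackets. Red points are members, blue points the genes of the other lists, and black bars the medians; the grey band spans the quartiles of all genes tested, −0.21 to 0.28, around their median of 0.02. The band describes single genes and is not the spread of a median. Among the families and splicing lists, the median of the hnRNPs (−0.35) lies left of it. So do those of the tri-snRNP (−0.33), SR kinase (−0.30) and branch point (−0.24) lists, while that of the Sm core (0.29) lies right of it. SF3A and SF3B are drawn as 1 group of 9 genes, with a median of −0.18 inside the band. The medians of the SR proteins (0.02) and of the hnRNPs and related proteins with other names (−0.01) lie near the middle.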

How the data were processed

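RNA from quadriceps muscle was sequenced as ribosomal RNA-depleted stranded libraries, 1 per mouse, in 3 control and 3 miDrp1KO mice, grouped by the genotype in the labels. The authors deposited raw counts per gene, which they made by aligning reads to GRCm38 and counting with Rsubread. The strand setting and the treatment of reads on overlapping or near-identical genes were not given in the sources used here, nor was the sequencing pool of each library, so a pool effect was not tested. Submitters' notes also name FastQC and DESeq2 1.30.0.

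Differences between genotypes were fitted by edgeR 4.0.16 (R 4.3.3) with TMM factors, the filterByExpr filter and a robust quasi-likelihood model; tests were 2-sided, with Benjamini-Hochberg adjustment over 16483 genes and a threshold of 0.05. CPM use TMM library sizes. Library totals ran from 13989588 to 62042255 counts and the biological coefficient of variation was 0.252. Alternatives were DESeq2 1.42.0, limma 3.58.1 voom, other normalizations and filters, the ribosomal RNA share as a covariate, each library left out, and, chosen after seeing the data, a length and GC correction (5-df splines). The edgeR, DESeq2 and voom fits were tested on simulated data.

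Coordinates, exon lengths and GC content came from GRCm38 annotation by RefSeq and GENCODE, promoter windows from RefSeq, and near-identical copies from BLAST+ 2.17.0. Where genes have several listed starts, the first was used. Members, lists and the rule for named genes (in each family the 3 lowest p, every other member with an unadjusted p under 0.05 and the most abundant per kb; in each list up to 3 genes by p among those with an unadjusted p under 0.05; and Dnm1l) were chosen with earlier results of these data known.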

Additional observations from a re-analysis of the deposited data

How the results depend on the processing

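Across 14 alternatives, the 17 members named by rule kept their direction, and the 1 that passed an adjusted threshold was Hnrnpa2b1 by DESeq2 (−0.69), so the members past it went from 0 to 1; by limma voom there were 0. Dnm1l passed by DESeq2 (−0.93, adjusted p = 0.00302) and in no other fit, where its log2 fold change ran from −1.05 to −0.79. Members lower at an unadjusted p under 0.05 were 11, 6 with the ribosomal RNA share in the fit, and 4 to 14 with a library left out; members higher were 1, and 0 to 2. The SR protein median, 0.02, was 0.107 with upper quartile normalization, −0.034 with the length and GC correction, and −0.093 to 0.096 with a library left out. The SF3 median, −0.18, ran from −0.41 (without miDrp1KO E) to −0.024 (without miDrp1KO F). The members' median ran from −0.33 to −0.11 and the hnRNP median from −0.44 to −0.24. Members above all controls were 2, and 2 to 4 with a library left out, where 2 libraries separate from 3 more easily by construction; those below were 15, and 11 to 21 over the alternatives. Of the other 22 members, 7 changed sign in some fit. Hnrnpf (−0.02) was 0.0065 by voom, 0.081 after upper quartile scaling, 0.031 when at least 10 counts were required of every library, 0.14 given the ribosomal RNA share, 0.040 after the length and GC correction, and −0.47 to 0.41 with a library left out. Srsf1 (−0.04) was 0.046 after upper quartile scaling, 0.00038 when 10 counts were required, and −0.10 to 0.058 with a library left out. Sf3b3 (−0.15) was 0.0066 with the ribosomal RNA share and −0.41 to 0.069 with a library left out. With a library left out, Hnrnpa0 (−0.09) ran from −0.22 to 0.090, Hnrnpd (0.05) from −0.089 to 0.23, Srsf10 (0.16) from −0.0045 to 0.27 and Srsf9 (0.08) from −0.10 to 0.31. The cause was not tested. Upper quartile normalization moved the median of all genes from 0.02 to 0.11 and leaving out the filter on low counts to 0.11, beside member medians of −0.14 and −0.22. The fits with voom, the ribosomal RNA share and the length and GC correction give no library levels and so no counts of non-overlapping members. No paired analysis was possible because no letter is shared by a control and a miDrp1KO library. The depth of control C, 13989588 counts, limits the precision of members at low levels, such as Sf3b4 with 28 reads there.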
